A study of Mus musculus with 30 samples.

Results

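The genes that encode the proteasome were described in the quadriceps muscle of wild-type mice and of a mouse model of myotonic dystrophy type 1 (DM1) that had been left untreated or given an antisense oligonucleotide, free or on a polymer carrier. Members were the protein-coding genes whose symbol is Psma, Psmb, Psmc, Psmd or Psme followed by a number and whose mean level over all libraries was at least 1 CPM, the count of a gene scaled to a fixed library total. Of 43 such symbols in the count table, 41 were members, and all 41 were among the 17518 of 56748 genes that passed the filter for testing. The lowest member was Psmb9, with a mean of 2.75 CPM, and the 2 symbols left out, Psma8 and Psmb11, had means of 0.00581 and 0.00674 CPM. The members were 7 genes of the 20S alpha ring, 4 of the beta ring that carry no active site, 3 catalytic beta genes, 3 immunoproteasome genes, 6 ATPases and 3 other genes of the 19S base, 8 genes of the 19S lid, 3 chaperones of 19S assembly and 4 activators.

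The 30 libraries came from 8 groups. WT mice (5 libraries) were untreated FVB/N animals, and all other groups were HSA-LR20b mice, a transgenic line on the FVB/N strain. This line makes a human skeletal actin transcript with a long CUG repeat where the skeletal actin promoter is active, so the repeat RNA is in muscle fibres. In patients the repeat lies in the DMPK gene. Untreated HSA-LR mice are called NT (8 libraries). The treated groups received pacDNA-L9, a bottlebrush polymer carrying a short locked nucleic acid oligonucleotide complementary to the CUG repeat, at 5.3 mg/kg (4 libraries), 21.2 mg/kg (3 libraries) or 42.4 mg/kg (3 libraries), the free oligonucleotide L9 at 5.3 mg/kg (3 libraries), the polymer alone (Brush, 40 nmol, 2 libraries), or the polymer with a scrambled oligonucleotide (pacDNA-Scr, 5.3 mg/kg, 2 libraries). Mice were 8 weeks old when injected in the tail vein, and muscle was taken 2 weeks after the last injection. Doses in mg/kg count the oligonucleotide, and the higher ones were given in several injections. FVB/N mice were bought as a separate strain and are not stated to be littermates of the transgenic line. The labels number the libraries without stating that each is a separate mouse, so the p-values measure the spread between these libraries.

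The proteasome is the large protease that breaks down proteins tagged with ubiquitin. Its 20S core is a barrel of alpha and beta rings whose active sites sit on Psmb5, Psmb6 and Psmb7, and the 19S regulatory particle on its end recognises, unfolds and feeds in the substrate. Under interferon, cells make Psmb8, Psmb9 and Psmb10, which replace the 3 constitutive catalytic subunits and form the immunoproteasome, whose products are favoured for presentation on MHC class I. In skeletal muscle the ubiquitin-proteasome system clears myofibrillar proteins and is known for its part in atrophy.

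Promoter sequences of 35 of the 41 members were found in the RefSeq promoter table (build GRCm38.p6, 250 bases before to 50 bases after the start of each gene). The 5 printed here belong to the 3 regulatory-particle genes with the smallest p-values in NT against WT (Psmd5, Psmd8) and under pacDNA-L9 (Psmd11), and to Psmb8 and the constitutive subunit that it replaces, Psmb5. Capitals mark matches, on either strand, to the motifs searched: the antioxidant response element core TGACNNNGC, the CCAAT box, the interferon-stimulated response element, the gamma-activated sequence TTCNNNGAA and the ETS core CCGGAAG, with its longer form CCGGAAGT, which overlaps it. The Psmd5 promoter lies at chr2:34870913-34871212 (minus strand), that of Psmd8 at chr7:29180624-29180923 (minus strand), that of Psmd11 at chr11:80428365-80428664 (plus strand), that of Psmb5 at chr14:54617946-54618245 (minus strand) and that of Psmb8 at chr17:34197945-34198244 (plus strand).
Psmd5: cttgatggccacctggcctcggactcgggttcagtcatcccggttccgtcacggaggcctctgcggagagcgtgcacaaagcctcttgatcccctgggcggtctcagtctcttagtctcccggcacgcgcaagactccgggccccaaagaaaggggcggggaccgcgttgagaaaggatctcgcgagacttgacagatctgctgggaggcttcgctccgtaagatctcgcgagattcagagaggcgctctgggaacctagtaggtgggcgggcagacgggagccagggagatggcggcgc
Psmd8: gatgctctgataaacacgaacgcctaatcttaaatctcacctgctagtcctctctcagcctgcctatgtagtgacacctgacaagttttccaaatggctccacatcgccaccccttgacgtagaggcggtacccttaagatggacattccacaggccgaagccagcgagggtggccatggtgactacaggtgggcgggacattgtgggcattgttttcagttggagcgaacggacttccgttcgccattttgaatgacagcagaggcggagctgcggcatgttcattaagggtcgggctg
Psmd11: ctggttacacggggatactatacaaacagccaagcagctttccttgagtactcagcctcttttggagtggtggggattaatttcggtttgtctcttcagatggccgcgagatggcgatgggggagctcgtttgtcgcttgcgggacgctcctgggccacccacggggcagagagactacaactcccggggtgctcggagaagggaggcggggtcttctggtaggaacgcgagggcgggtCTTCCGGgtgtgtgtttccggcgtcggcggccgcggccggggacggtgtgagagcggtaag
Psmb5: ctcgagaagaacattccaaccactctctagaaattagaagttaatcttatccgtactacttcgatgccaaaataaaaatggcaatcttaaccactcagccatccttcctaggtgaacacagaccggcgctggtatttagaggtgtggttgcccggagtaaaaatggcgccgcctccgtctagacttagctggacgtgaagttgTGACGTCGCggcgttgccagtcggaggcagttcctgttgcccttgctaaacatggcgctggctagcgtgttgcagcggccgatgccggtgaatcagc
Psmb8: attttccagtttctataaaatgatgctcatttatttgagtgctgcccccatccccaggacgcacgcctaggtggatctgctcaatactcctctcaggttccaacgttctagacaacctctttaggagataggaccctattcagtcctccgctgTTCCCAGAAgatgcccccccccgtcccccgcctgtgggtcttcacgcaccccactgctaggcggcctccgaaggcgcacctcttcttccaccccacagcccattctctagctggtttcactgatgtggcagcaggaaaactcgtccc

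The Psmd5 and Psmd8 windows held none of these letters. The ETS core was found in the Psmd11 window 11 bases before the start, the antioxidant response element core in the Psmb5 window 47 bases before the start, and the gamma-activated sequence in the Psmb8 window 97 bases before the start. The ETS core was present in 11 of 35 member promoters (31.4%) and in 9.12% of the 27025 promoters in the table. It was unevenly spread over the complex, being found in 9 of 14 promoters of 19S base and lid genes (64.3%), in 0 of 11 promoters of constitutive 20S genes and in 0 of 5 promoters of immunoproteasome and PA28 genes. The longer ETS form was found in 7 of 35 member promoters (20%) against 4% of all. The antioxidant response element core was in 6 of 35 (17.1%) against 12.5% of all, the CCAAT box in 13 of 35 (37.1%) against 37.9%, the interferon-stimulated response element in 4 of 35 (11.4%) against 3.49%, and the gamma-activated sequence in 2 of 35 (5.71%) against 8.47%. These are matches of letters in a fixed window and not measured binding sites.

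Levels are given as CPM after TMM scaling, which adjusts for library composition, and are comparable for one gene across libraries. Total counts were 13605309 to 26956558 per library (median 20141850.5), and the members took 0.318% to 0.482% of them. The libraries were deposited as 2 sets, 24 in the first and 6 in the second (NT 7 and 8, pacDNA-L9 5.3 mg/kg C and D, pacDNA-L9 21.2 mg/kg C and L9 C), 5 of the second set hold no counts for the 37 mitochondrial genes, and 59.9% of the variance in log2 CPM lay on the first principal component. L9 B had a count for 14485 genes against 17844 to 22297 in the other libraries. The labelled tissue was checked on marker genes: Acta1, the skeletal muscle actin, had a median of 42940 CPM, while the T cell gene Cd3e was at 0 in 18 libraries and the B cell gene Cd79a at 0 in 9. Other leukocyte markers were present, with medians of 41.2 CPM for Lyz2, 22.9 for Cd74, 15.2 for Csf1r and 6.68 for Cd68. So were fibroblast and endothelial markers, such as Dcn (257 CPM), Col1a1 (234 CPM) and Cdh5 (72.1 CPM). In bulk muscle, fewer cells of a type and less RNA per cell cannot be told apart.

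Per length of the canonical transcript, the 3 constitutive catalytic subunits stood above those of the immunoproteasome in untreated HSA-LR muscle. In the first-set NT libraries (n = 6) the level per kilobase was 149 ± 22.8 CPM (SD) for Psmd4, the ubiquitin receptor of the 19S base, 129 ± 24.4 CPM for the catalytic Psmb6 and 117 ± 10.3 CPM for the catalytic Psmb7. On the same per-kilobase scale Psmb10 was at 9.88 ± 2.09 CPM, Psmb8 at 3.59 ± 2.32 CPM and Psmb9 at 3.04 ± 1.62 CPM. Psmb8 and Psmb9 were the lowest members, and their spreads overlap. Psmd5, a chaperone that binds a 19S ATPase during assembly, was also low at 5.96 ± 0.564 CPM per kilobase. Within a group most members varied little. The median biological coefficient of variation was 0.176 over the members and 0.279 over all genes tested, and the members with the largest values were Psmb9 (0.455), Psmb8 (0.393), Psme2 (0.315) and Psmb5 (0.299). The members were not set against other genes of matched level, so the contrast cannot be credited to proteasome genes as such.

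In untreated HSA-LR muscle against WT, 2 proteasome genes rose and none fell: Psmd5 and Psmd8, a subunit of the 19S lid. These were 2 of 41 members, where 5.31% of all genes were called in either direction and 3.64% were called higher and 1.67% lower (edgeR quasi-likelihood test, adjusted p under 0.05 over all genes). DESeq2 called 5 members higher, adding Psmd4, Psmd7 and Psmd11. The shares above are those of edgeR, and the share of all genes that DESeq2 called is not given here. At an unadjusted p under 0.05 there were 8 members against 16.5% of all genes.

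Psmd5 (ENSMUSG00000026869, GRCm39 chr2:34739746-34764980, minus strand) was at 19.2, 19.0, 19.6 and 16.7 CPM in WT 1 to 4 and 14.1 CPM in the unnumbered WT library. In the 8 NT libraries its level ran from 23.0 CPM through a median of 27.3 to 30.9 CPM. Every NT library was above every WT library, with group means of 27 ± 2.68 CPM (SD, n = 8) in NT and 17.7 ± 2.30 CPM (n = 5) in WT. The difference was 0.62 on the log2 scale (SE 0.13, 1.54-fold, adjusted p = 0.00313). The treated groups, all HSA-LR, had Psmd5 levels of 28.96, 27, 26.5 and 23.0 CPM with pacDNA-L9 at 5.3 mg/kg, of 21.3, 30.2 and 28.1 CPM at the middle dose, and of 30.4, 27.3 and 21.9 CPM at the top dose. It was at 36.0, 35.4 and 24.0 CPM with L9, at 26.3 and 24.7 CPM with Brush and at 24.1 and 32.7 CPM with pacDNA-Scr. The lowest of all HSA-LR libraries, 21.3 CPM, was thus above the highest WT library, 19.6 CPM. Psmd5 was 1 member of 41 with this separation, which 1.03% of all genes tested showed in the higher direction and 0.485% in the lower. Psmd5 exons share 10.8% of their bases with exons on the opposite strand.

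Psmd8 (ENSMUSG00000030591, chr7:28873612-28880135, minus strand) was at 119.5, 89.0, 78.3, 91.7 and 86.3 CPM in the 5 WT libraries, in the same order. In NT it ran from 116 CPM through a median of 134 to 187 CPM. WT 1 lay inside the NT range, above the lowest NT library (NT 7, of the second set), while within the first set no WT library reached an NT library. The group means were 140.2 ± 23.3 CPM in NT (SD, n = 8) and 93.0 ± 15.6 CPM in WT (n = 5), a difference of 0.60 on the log2 scale (SE 0.15, 1.51-fold, adjusted p = 0.0141). Within the first set alone edgeR called 5 members in place of 2 (Psmd4, Psmd5, Psmd7, Psmd8 and the 20S gene Psmb1), and it called the same 5 when a covariate was added there for the libraries whose columns are named by group and a running number. Such columns hold 9 libraries in all, among them the unnumbered WT library and NT 6. The share of all genes called within the first set is not given here. Without WT 3 the adjusted p of Psmd8 was 0.0551, and only Psmd5 was called.

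**Figure D1:**
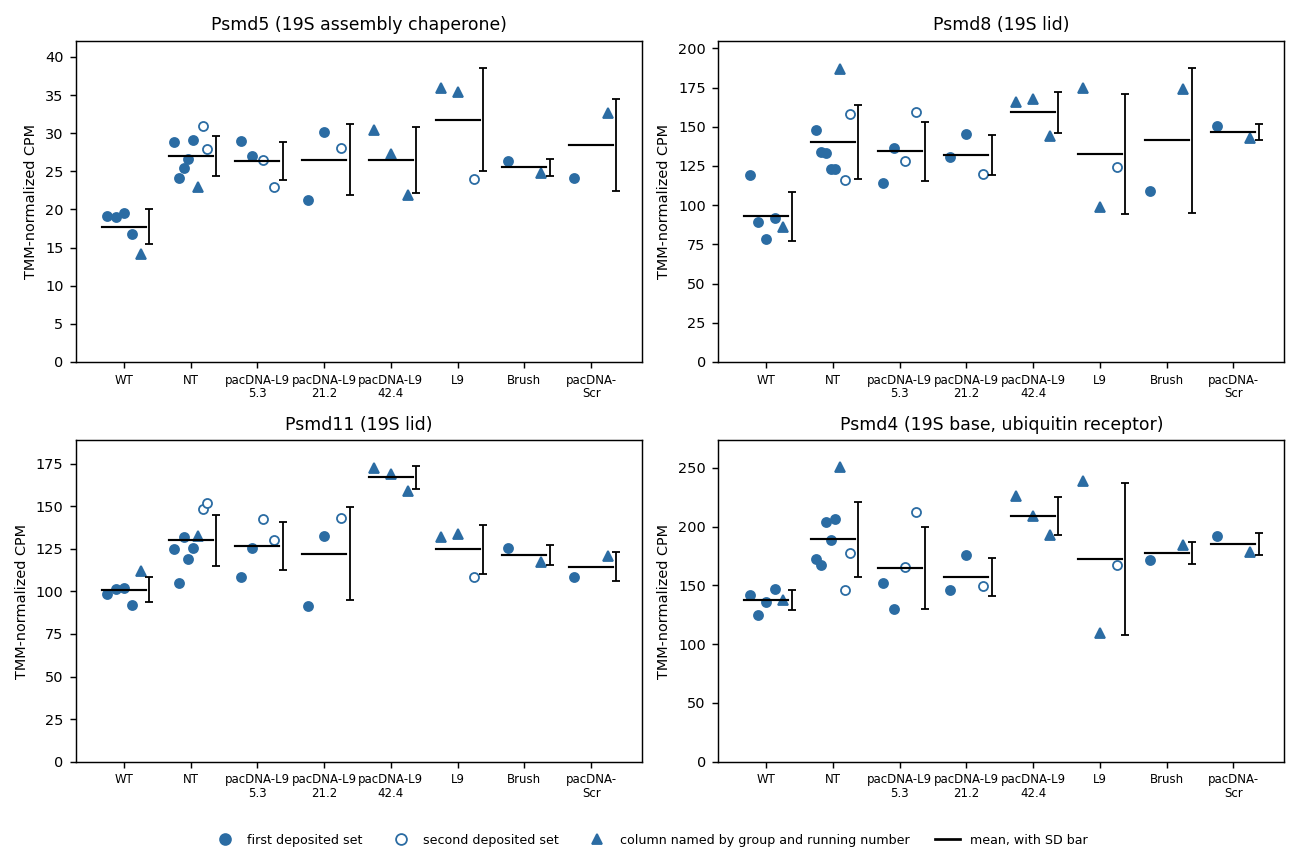
TMM-normalized CPM of Psmd5, Psmd8, Psmd11 and Psmd4 in each library of the 8 groups. Filled circles are first-set libraries, open circles second-set libraries and triangles first-set libraries in columns named by group and running number; the line is the group mean and the bar 1 SD. For Psmd5 all HSA-LR libraries lie above 19.6 CPM, the highest WT level, and for Psmd11 the 3 libraries at 42.4 mg/kg (159 to 173 CPM) lie above all NT libraries (105 to 152 CPM).

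The rest of the 19S lid, and Psmd4 of the base, leaned the same way without passing the edgeR test. DESeq2 called Psmd4 (adjusted p = 0.0352), Psmd7 (0.0275) and Psmd11 (0.0331), and the adjusted p-values below are from edgeR. All 8 lid genes had a log2 difference above 0 in NT against WT, with a median of 0.21, where 46.4% of all genes were above 0. Psmd4 was at 142, 125, 136, 147 and 137 CPM in WT and at 146 to 251 CPM in NT (log2 difference 0.47, SE 0.15, adjusted p = 0.0713). Psmd7, a lid subunit that partners the deubiquitinase Psmd14, was at 124 to 161 CPM in WT and 166 to 208 CPM in NT (0.33, SE 0.11, adjusted p = 0.0754). Every NT library was above every WT library for Psmd7. Psmd11, a scaffold subunit of the lid, was at 98.4, 101, 102, 92.0 and 112 CPM in WT and ran from 105 CPM through 129 to 152 CPM in NT (0.31, SE 0.10, adjusted p = 0.0860). Its groups overlapped, with the unnumbered WT library above the lowest NT library. Across the members 32 of 41 were above 0, with a median log2 difference of 0.0953 against -0.0277 for all genes. NT and WT did not overlap for 4 members, all higher in NT (Psmd5, Psmd7, Psma5 and Psmd14), where 3.08% of all genes were higher without overlap. Within the first set it was 7 members, all higher (Psma5, Psmd2, Psmd4, Psmd5, Psmd7, Psmd8 and Psmd14), against 4.19% of all genes.

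**Figure D2:**
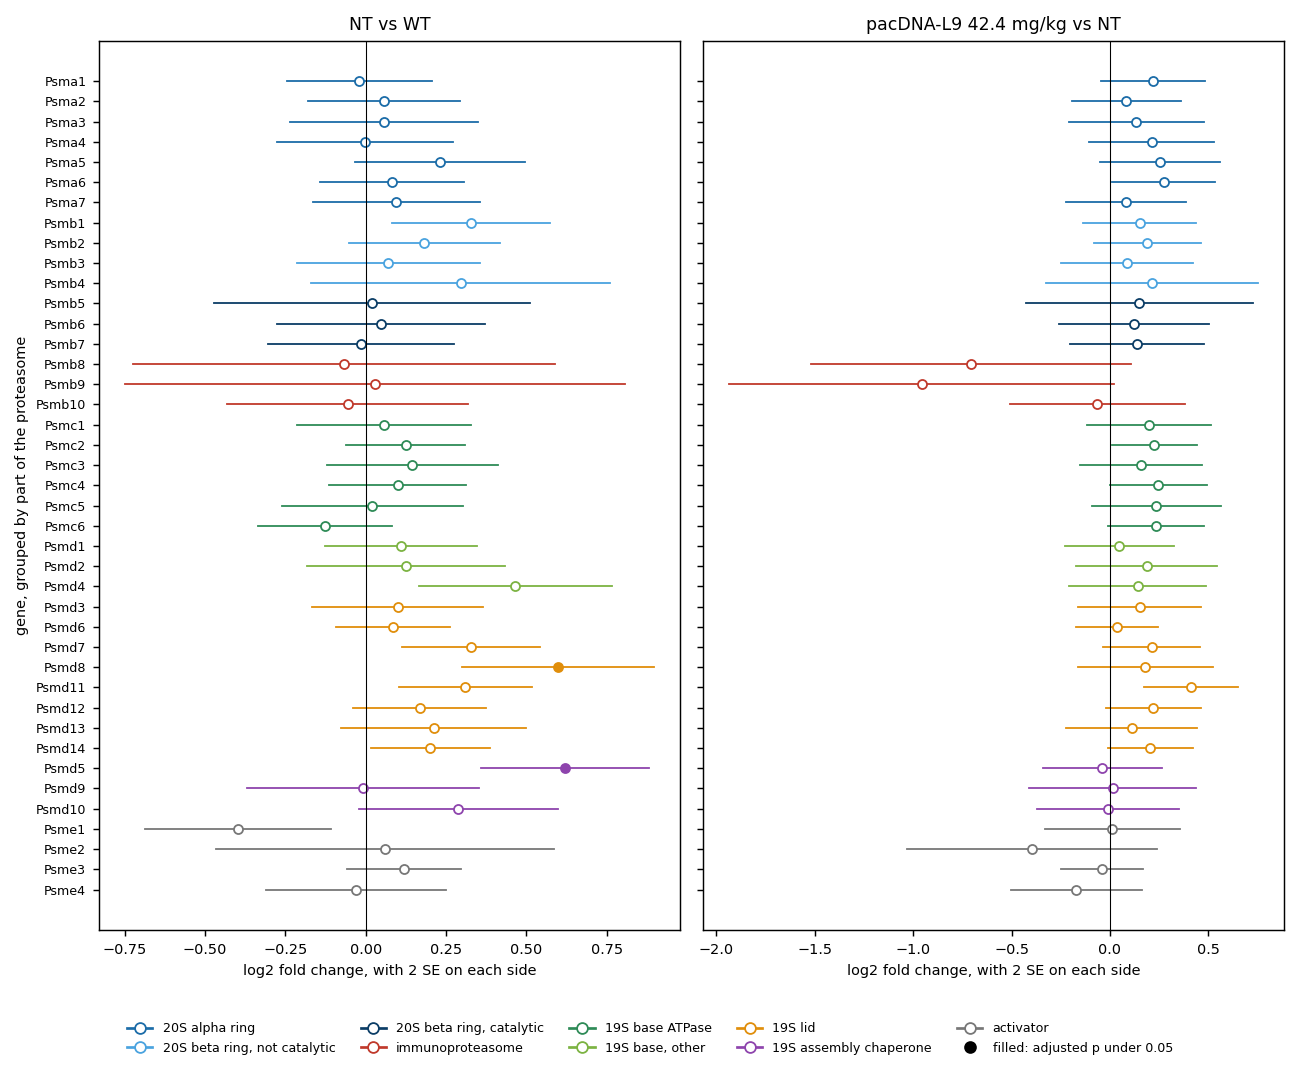
Log2 fold change of all 41 members, coloured by their place in the complex, for NT against WT (left) and pacDNA-L9 42.4 mg/kg against NT (right), with bars of 2 standard errors on each side; the 2 x axes differ in range. Filled symbols have an adjusted p under 0.05, which at left are Psmd5 (0.62) and Psmd8 (0.60) and at right none, while Psmb9 (-0.96) and Psmb8 (-0.71) have the lowest values and the widest bars at right.

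With all libraries in the model, no gene of the core or the immunoproteasome passed the test between NT and WT. None of the 14 constitutive 20S genes was called by edgeR or DESeq2, and 1 of the 14 had an unadjusted p under 0.05, Psmb1 (0.33, SE 0.12, adjusted p = 0.139). Psmb1 was called within the first set alone. Psmb5, which carries the chymotrypsin-like site, was at 55.6, 33.4, 41.9, 52.4 and 47.4 CPM in WT and ran from 34.6 CPM through 43.8 to 70.2 CPM in NT. The difference was 0.02 on the log2 scale (interval of 2 SE from -0.47 to 0.51). Psmb6, with the caspase-like site, was at 138, 97.3, 134, 131 and 124 CPM in WT and ran from 104 CPM through 119 to 171 CPM in NT, a difference of 0.05 (-0.28 to 0.37). Both pairs of ranges overlapped widely. Psmb7, with the trypsin-like site, was at 121, 124, 139.5, 136 and 122 CPM in WT and 122 to 151 CPM in the first-set NT libraries, but at 202 and 232 CPM in the 2 second-set NT libraries. Its difference with deposited set in the model was -0.01 (-0.30 to 0.28).

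Psmb8 (ENSMUSG00000024338, chr17:34416690-34420428, plus strand) was at 3.66, 6.23, 5.42, 8.45 and 5.03 CPM in WT. In NT 1 to 8 it was at 3.96, 3.26, 6.14, 13.2, 7.54, 2.55, 2.65 and 3.13 CPM. NT 4 was the highest of all 30 libraries and NT 6 among the lowest, and the groups overlapped, with a difference of -0.07 (-0.72 to 0.59). Psmb9 (ENSMUSG00000096727, chr17:34400960-34406738, minus strand), encoded close to Psmb8 in the MHC class II region, was at 2.54, 5.45, 2.56, 4.35 and 3.08 CPM in WT and ran from 1.33 CPM through 2.58 to 7.89 CPM in NT, where NT 4 was again highest (0.03, -0.75 to 0.81). Psmb10 (ENSMUSG00000031897, chr8:106662362-106665077, minus strand) was at 10.9, 12.8, 10.7, 14.2 and 15.8 CPM in WT and ran from 8.199 CPM through 11.1 to 16.8 CPM in NT (-0.06, -0.43 to 0.32). None of the 3 was called, and the intervals for Psmb8 and Psmb9 were the widest of the 41. Per kilobase of canonical transcript, the level of Psmb8 as a percentage of that of Psmb5 was 13.0 ± 4.71% in WT (SD, n = 5) and 11.0 ± 5.82% in NT (n = 8). For Psmb9 against Psmb6 these values were 2.32 ± 1.19% and 2.03 ± 1.02%, and for Psmb10 against Psmb7 8.91 ± 1.73% and 7.17 ± 2.64%. The last NT mean mixes the deposited sets, which differ in Psmb7. Psmb10 was at 6.59 to 10.3% of Psmb7 in the first-set NT libraries and at 3.59 and 3.13% in NT 7 and NT 8. The 5 WT libraries, all first set, were at 6.80 to 11.5%.

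Psme1 and Psme2 encode the PA28 activator, which opens the core without ATP and is induced with the immunoproteasome. Psme1 was at 36.5, 36.2, 34.3, 39.1 and 52.9 CPM in WT and ran from 25.3 CPM through 29.7 to 38.5 CPM in NT, the lowest member value of the comparison at -0.40 (SE 0.14, adjusted p = 0.123). The ranges overlapped and the unnumbered WT library stood highest. Psme2 was at 13.8, 9.89, 11.1, 14.2 and 15.3 CPM in WT and ran from 7.16 CPM through 18.2 to 22.3 CPM in NT (0.06, -0.47 to 0.58). Neither passed the test.

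Of the other genes of the pathway, 1 of 13 ubiquitin and substrate-delivery genes was called in NT against WT. This was Nploc4, a cofactor that brings ubiquitinated proteins to the unfoldase p97, at 146 ± 19.0 CPM in NT (SD, n = 8) and 99.1 ± 7.01 CPM in WT (n = 5), a log2 difference of 0.62 (SE 0.13, adjusted p = 0.00413). None of the 6 genes of 20S assembly, 8 other subunits and bound factors, 5 regulators of proteasome genes, 8 genes of MHC class I peptide loading and 12 interferon-responsive genes was called by edgeR or by DESeq2. At an unadjusted p under 0.05 there was 1 gene of the assembly list, 1 of the regulators and none of the other 3 lists. Nfe2l1, the transcription factor that raises proteasome genes when the proteasome is impaired, differed by 0.35 (SE 0.13, adjusted p = 0.156), and Pomp, the maturation factor of the core, by 0.28 (SE 0.14, adjusted p = 0.321). In the same comparison the muscle genes Mb (log2 difference 1.36) and Myh1 (1.29) and the macrophage gene Cd68 (1.54) rose. They were 2 of 7 skeletal muscle markers, of which 4 were below 0 (median -0.15), and 1 of 7 leukocyte markers tested. The 3 endothelial markers were all below 0 (median -0.46) with an unadjusted p under 0.05, and none was called. The summed level of the 9 leukocyte markers was 51.2 to 72.7 CPM in WT and 51.9 to 93.7 CPM in NT. The part of these cell types in the member values was not tested.

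Under pacDNA-L9 no proteasome gene passed the edgeR test against NT at any dose. All comparisons with NT share the same 8 NT libraries. At 5.3 mg/kg edgeR and DESeq2 called 0 members, and 0 had an unadjusted p under 0.05. Over all genes edgeR called 0%, and 1.58% had such a p, while DESeq2 did call genes outside the members, such as Cd68. The smallest p-values belonged to Psmb8, at 3.63, 3.53, 3.66 and 3.63 CPM (log2 difference -0.44, SE 0.38, adjusted p = 1), and to Psmd4, at 152, 129.5, 166 and 213 CPM (-0.19, SE 0.16, adjusted p = 1). Psmb8 lay inside its NT range, and Psmd4 overlapped with its own, with library B below every NT library. The members' log2 differences were below 0 for 36 of 41 with a median of -0.0570, while 49.4% of all genes were above 0. The first-set libraries A and B of this dose lay below every first-set NT library for 10 members, where 4.15% of all genes did so. With the second-set libraries included no member was without overlap, where 0.0685% of all genes were lower and 0.228% higher. At 21.2 mg/kg the count was again 0 by edgeR, by DESeq2 and at an unadjusted p under 0.05, with 0.0685% of all genes called by edgeR and 2.21% at such a p. Psmc2, a 19S ATPase, was at 93.9, 111.0 and 106 CPM and ran from 111.1 to 135 CPM in NT, so that the groups just failed to overlap (-0.21, SE 0.11, adjusted p = 1), where 0.303% of all genes were lower without overlap. Psmb8 was at 3.22, 3.26 and 3.26 CPM (-0.65, SE 0.41, adjusted p = 1), within the NT range. At this dose 39 of 41 members were below 0, with a median of -0.137, where 48% of all genes were above 0. Within the first set 4 members were lower without overlap (Psma5, Psma6, Psmb7 and Psmc2), against 4.04% of all genes.

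At 42.4 mg/kg edgeR called 0 members, where 3.14% of all genes were called, and DESeq2 called 1, Psmd11. At an unadjusted p under 0.05 there were 3 members (Psmd11, Psma6 and Psmc2) against 13.1% of all genes. Psmd11 (ENSMUSG00000017428, chr11:80319400-80364074, plus strand), whose promoter holds the ETS core shown above, was at 173, 169 and 159 CPM at this dose. All 3 libraries were above the NT range of 105 to 152 CPM and the WT range of 92.0 to 112 CPM. The group mean was 167 ± 6.94 CPM (SD, n = 3) against 129.9 ± 15.2 CPM in NT (n = 8), a difference of 0.41 (log2 scale, SE 0.12, 1.33-fold, adjusted p = 0.0548). It was called where genes needed at least 10 counts in every library (adjusted p = 0.0479). Psmd11 was at 109, 125, 142 and 130.3 CPM at 5.3 mg/kg, 91.5, 132 and 143 CPM at 21.2 mg/kg, 132, 134 and 108 CPM with L9, 126 and 117 CPM with Brush and 109 and 120.5 CPM with pacDNA-Scr. No library of those groups reached the 3 at 42.4 mg/kg. Psma6, a subunit of the alpha ring, was at 129.4, 148 and 129.3 CPM against 95.4 to 131 CPM in NT (0.27, SE 0.13, adjusted p = 0.366), which overlapped.

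Most members lay above NT at 42.4 mg/kg without passing the edgeR test. All 14 constitutive 20S genes, 6 ATPases, 3 other base genes and 8 lid genes had a log2 difference above 0, the 3 immunoproteasome genes were below 0, and over all members 33 of 41 were above 0 with a median of 0.149, where 47.5% of all genes were above 0. NT and the top dose did not overlap for 2 members, both higher (Psmd11 and Psma1), against 3.95% of all genes, and within the first set for 6, all higher (Psma1, Psma5, Psmc6, Psmd11, Psmd12 and Psmd14), against 5.3%. The 3 libraries of this dose are all in columns named by group and running number, as is NT 6. The median log2 ratio of the 14 constitutive 20S genes to the first-set NT mean was 0.17, 0.09 and 0.08 in the 3 libraries. In the NT libraries it ran from -0.24 to 0.16, with 0.12 in NT 6 and the highest value in NT 5, which is not a running-number library. In the first-set libraries of the lower doses it was -0.24 and -0.29 at 5.3 mg/kg and -0.34 and -0.20 at 21.2 mg/kg. For the 17 genes of the 19S base and lid the 42.4 mg/kg libraries were at 0.21, 0.23 and 0.07, and NT 6 at 0.13. With the running-number libraries as a covariate within the first set, the member median at 42.4 mg/kg was -0.0228 against -0.0223 for all genes, and Psmd11 had a difference of 0.33 (adjusted p = 0.474). The dose and the column naming can be told apart only through NT 6 and the running-number libraries of the other groups.

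**Figure D3:**
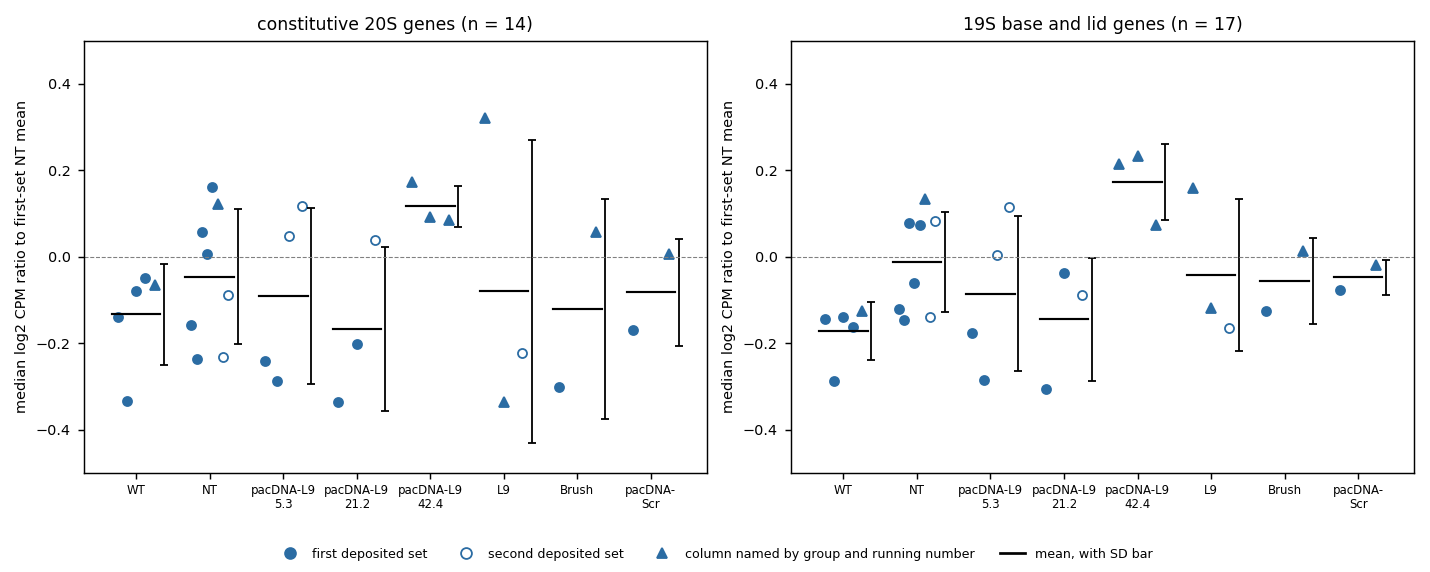
Median log2 ratio of each library to the first-set NT mean, over the 14 constitutive 20S genes (left) and the 17 genes of the 19S base and lid (right), with 1 symbol for each library. Libraries at 42.4 mg/kg lie above 0 in both panels (0.08 to 0.17 at left, 0.07 to 0.23 at right), WT libraries lie below 0, and L9 A and L9 B lie at 0.32 and -0.34 at left.

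Among the immunoproteasome genes the largest difference under pacDNA-L9 was that of Psmb9 at 42.4 mg/kg, which did not pass the test. Psmb9 was at 1.92, 0.886 and 2.79 CPM at this dose, with 15 counts in the middle library (-0.96, SE 0.49, adjusted p = 0.418). The lowest of the 3 was below every NT library, and the other two lay within the NT range. It was at 2.09, 2.62, 2.78 and 1.49 CPM at 5.3 mg/kg and 2.44, 2.83 and 1.72 CPM at 21.2 mg/kg. Psmb8 was at 4.22, 1.83 and 3.99 CPM at 42.4 mg/kg (-0.71, SE 0.41, adjusted p = 0.501), the middle library again below all NT libraries. Psmb10 was at 15.9, 8.80 and 10.9 CPM (-0.06, SE 0.22, adjusted p = 0.979), all within the NT range. Relative to the constitutive subunits, per kilobase, Psmb8 was at 6.31 ± 1.95% of Psmb5 at this dose (SD, n = 3), Psmb9 at 1.02 ± 0.544% of Psmb6 and Psmb10 at 7.52 ± 2.43% of Psmb7. The 3 libraries, all first set, had Psmb10 at 10.1, 5.29 and 7.16% of Psmb7, against 6.59 to 10.3% in first-set NT. The PA28 genes did not pass the test either: Psme2 was at 10.6, 7.32 and 12.5 CPM (-0.40, SE 0.32, adjusted p = 0.691) and Psme1 at 32.0, 23.7 and 35.5 CPM (0.01, SE 0.17, adjusted p = 1).

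The fitted level of Psmb8 was below that of NT in each treated group, with log2 differences of -0.44, -0.65 and -0.71 at the rising doses of pacDNA-L9, -0.94 with L9, -0.72 with Brush and -0.69 with pacDNA-Scr. For Psmb9 these were -0.50, -0.54, -0.96, -0.78, -0.75 and -0.74 in the same order. These 6 comparisons share their controls, none was called, and their size depended on NT 4. Without NT 4 the Psmb8 differences were -0.16, -0.34, -0.35, -0.64, -0.36 and -0.33 in that order, and Psmb8 in NT against WT went from -0.07 to -0.43. The summed level of 12 interferon-responsive genes was likewise highest in NT 4. It was 141.4 CPM in NT 4, 92.0 CPM in NT 5 and 48.4 to 67.04 CPM in the other 6 NT libraries, against 61.3 to 79.9 CPM in WT and 46.6, 28.6 and 48.6 CPM at 42.4 mg/kg. L9 B went the other way, with the second highest sum of the 30 libraries (99.5 CPM) and the lowest levels of Psmb8 and Psmb9. All 12 interferon-responsive genes were below 0 at 42.4 mg/kg (median -0.87), where 47.5% of all genes were above 0. This direction was not particular to that dose. All 12 were also below 0 with Brush (median -0.23) and pacDNA-Scr (median -0.49), which hold no L9. The low dose of pacDNA-L9 had 10 of the 12 below 0, the middle dose 9 and free L9 6. Each of these comparisons includes NT 4. For 42.4 mg/kg edgeR called 2 of the 12, both lower, where 3.14% of all genes were called. Igtp, an interferon-induced GTPase, differed by -1.55 (SE 0.32, adjusted p = 0.00498). Irf9, the DNA-binding part of the interferon-stimulated transcription factor, differed by -0.96 (SE 0.23, adjusted p = 0.0138). DESeq2 called 3, adding Iigp1, another interferon-induced GTPase (edgeR log2 difference -2.17, SE 0.77, adjusted p = 0.154). None of the 8 genes of MHC class I peptide loading was called at this dose by edgeR or DESeq2, with 1 at an unadjusted p under 0.05. The summed level of the leukocyte markers was 198.6 to 278.4 CPM at 42.4 mg/kg and 51.9 to 93.7 CPM in NT, and Cd68, Csf1r and Lyz2 rose. The sum was 110.7 to 143.0 CPM at 5.3 mg/kg, 86.7 to 211.6 CPM at 21.2 mg/kg and 149.7 to 162.8 CPM with Brush. It was 82.9 to 139.3 CPM with pacDNA-Scr and 60.9 to 92.9 CPM with L9. At 21.2 mg/kg edgeR called 2 leukocyte markers, both higher. The adipocyte markers Adipoq, Plin1 and Cidec summed to 333.8 CPM in NT 4 and 335.4 CPM in L9 B. In the other libraries their sum was 5.94 to 224.0 CPM. The part of leukocytes and adipocytes in the immunoproteasome values was not tested.

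**Figure D4:**
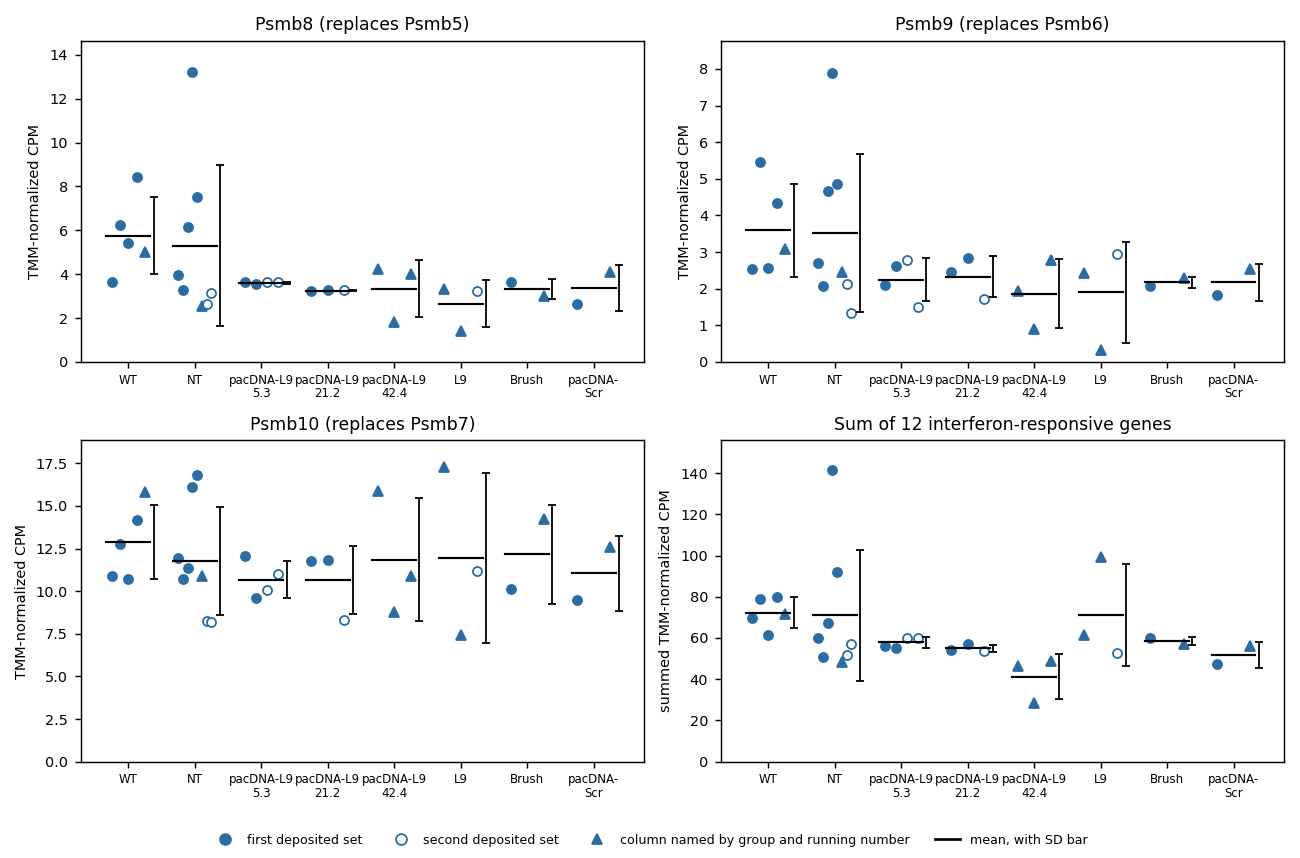
TMM-normalized CPM of Psmb8, Psmb9 and Psmb10, with the constitutive subunit that each replaces named in its panel, and the summed CPM of 12 interferon-responsive genes, for each library by group. NT 4 stands highest in the Psmb8 panel (13.2 CPM), the Psmb9 panel (7.89 CPM) and the interferon panel (141.4 CPM), and the interferon sums at 42.4 mg/kg are 28.6 to 48.6 CPM.

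Other pathway genes at 42.4 mg/kg held 1 call outside the interferon list, Txnl1, a thioredoxin-like protein bound to the 19S particle, which rose from 75.9 ± 10.1 CPM in NT (SD, n = 8) to 106.5 ± 14.4 CPM (n = 3; log2 difference 0.54, SE 0.14, adjusted p = 0.0316). Nfe2l1 differed by 0.12 (SE 0.16, adjusted p = 0.862) and Pomp by 0.10 (SE 0.16, adjusted p = 0.908). Over all 8 groups at once, edgeR found a difference for Psmd5 (adjusted p = 0.0238) and Psmd11 (adjusted p = 0.0246), 2 of 41 members where 5.99% of all genes were called.

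Free L9 called no member against NT with edgeR or DESeq2, where edgeR called 0.942% of all genes, and 2 members had an unadjusted p under 0.05 against 13.8% of all genes. The log2 difference was above 0 for 19 of 41 members, where 47.6% of all genes were above 0. Within the first set 5 members were higher with L9 without overlap (Psma4, Psmc6, Psmd12, Psmd5 and Psme1), where 5.01% of all genes were. There 0 were lower, where 8.77% of all genes were. With L9 C and the second-set NT libraries included, 0 members were without overlap, where 0.445% of all genes were higher and 0.765% lower. The 3 libraries of this group lay far apart. L9 A was the highest of the 30 libraries for 15 members, and L9 B was the lowest for 17 and the highest for 6. Psmb4, a beta subunit with no active site, was at 222 CPM in L9 A, 35.1 CPM in L9 B and 133 CPM in L9 C. Psma4, an alpha subunit, was at 108, 148 and 88.3 CPM, against 74.3 to 101 CPM in NT (0.35, SE 0.16, adjusted p = 0.314). L9 B was thus lowest for one gene of the core and highest for another, and L9 C lay inside the NT range for both. Psmb8 was at 3.32, 1.40 and 3.22 CPM (-0.94, SE 0.43, adjusted p = 0.322) and Psmb9 at 2.41, 0.337 and 2.95 CPM, with 6 counts in L9 B. L9 B lay below every NT library for both genes, and the other two libraries did not. Without L9 A edgeR called 4 members, all lower (Psmb4, Psmb7, Psma1 and Psma5), and without L9 C it called 1, Psma4 (0.59). The shares of all genes called in these fits are not given here.

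No member passed the test with the carrier alone or the scrambled conjugate. With Brush edgeR and DESeq2 called 0 members and 0 had an unadjusted p under 0.05, against 0% and 1.88% of all genes by edgeR. DESeq2 did call genes outside the members, such as Lyz2. The log2 difference was below 0 for 33 of 41 members, where 48% of all genes were above 0. Psmb8 was at 3.66 and 3.02 CPM (-0.72, SE 0.48, adjusted p = 1) and Psmb9 at 2.06 and 2.28 CPM (-0.75, SE 0.57, adjusted p = 1), both within the NT range. With pacDNA-Scr the counts were 0 by both tools and 0 at an unadjusted p under 0.05, against 0% and 1.54% of all genes by edgeR. The log2 difference with pacDNA-Scr was below 0 for 34 of 41 members, where 49.7% of all genes were above 0. Psmb8 was at 2.64 and 4.12 CPM (-0.69, SE 0.48, adjusted p = 1) and Psmb9 at 1.82 and 2.53 CPM (-0.74, SE 0.57, adjusted p = 1), again within the NT range. Psmb7 was at 119.0 and 120.0 CPM with pacDNA-Scr, just below the lowest NT library at 122 CPM, where 1.02% of all genes were lower without overlap. With 2 libraries in each of these groups, the median SE of a member's log2 difference from NT was 0.19 in both, against 0.15 to 0.16 for the groups of 3 or 4 libraries.

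At the matched dose of 5.3 mg/kg, pacDNA-L9 was set against free L9, which lacks the polymer, and against pacDNA-Scr, which carries a different oligonucleotide. Between pacDNA-L9 and L9 edgeR and DESeq2 called 0 members and 0 had an unadjusted p under 0.05, against 0.719% and 11.2% of all genes by edgeR. The smallest p-values were those of Psma4, at 77.7, 76.9, 108 and 116 CPM with pacDNA-L9 (-0.35, interval of 2 SE from -0.72 to 0.01, adjusted p = 0.481), and Psmb7, at 107, 111, 301 and 304 CPM with pacDNA-L9 and 142, 61.1 and 208 CPM with L9 (0.33, -0.06 to 0.72, adjusted p = 0.554). Both overlapped between the groups. Psmb7 was called without L9 A (0.67) and Psma4 without L9 C (-0.64). Psmb8 was higher with pacDNA-L9 in every library, where 2.58% of all genes were higher without overlap. The interval of 2 SE for its difference included 0 (0.50, -0.42 to 1.42, adjusted p = 0.747). Between the first-set libraries, 2 in each group, 18 members were lower with pacDNA-L9 without overlap, where 11.8% of all genes were, and 1 was higher, where 20.2% were. Between pacDNA-L9 and pacDNA-Scr the counts were 0 by both tools and 0 at an unadjusted p under 0.05, against 0% and 1.53% of all genes by edgeR. Between the first-set libraries, 2 in each group, 16 members were lower with pacDNA-L9 without overlap, where 15% of all genes were. With the second-set libraries included none was, where 5.89% of all genes were. Psme4, a large activator also called PA200, was at 259, 258, 263 and 305 CPM with pacDNA-L9 and 336 and 273 CPM with pacDNA-Scr (-0.20, -0.63 to 0.23, adjusted p = 1). Psme2 was at 7.47, 13.8, 30.1 and 26.95 CPM with pacDNA-L9 and 7.97 and 12.6 CPM with pacDNA-Scr (0.36, -0.48 to 1.199, adjusted p = 1). All 5 intervals include 0, and they do not show that the compounds act alike.

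**Figure D5:**
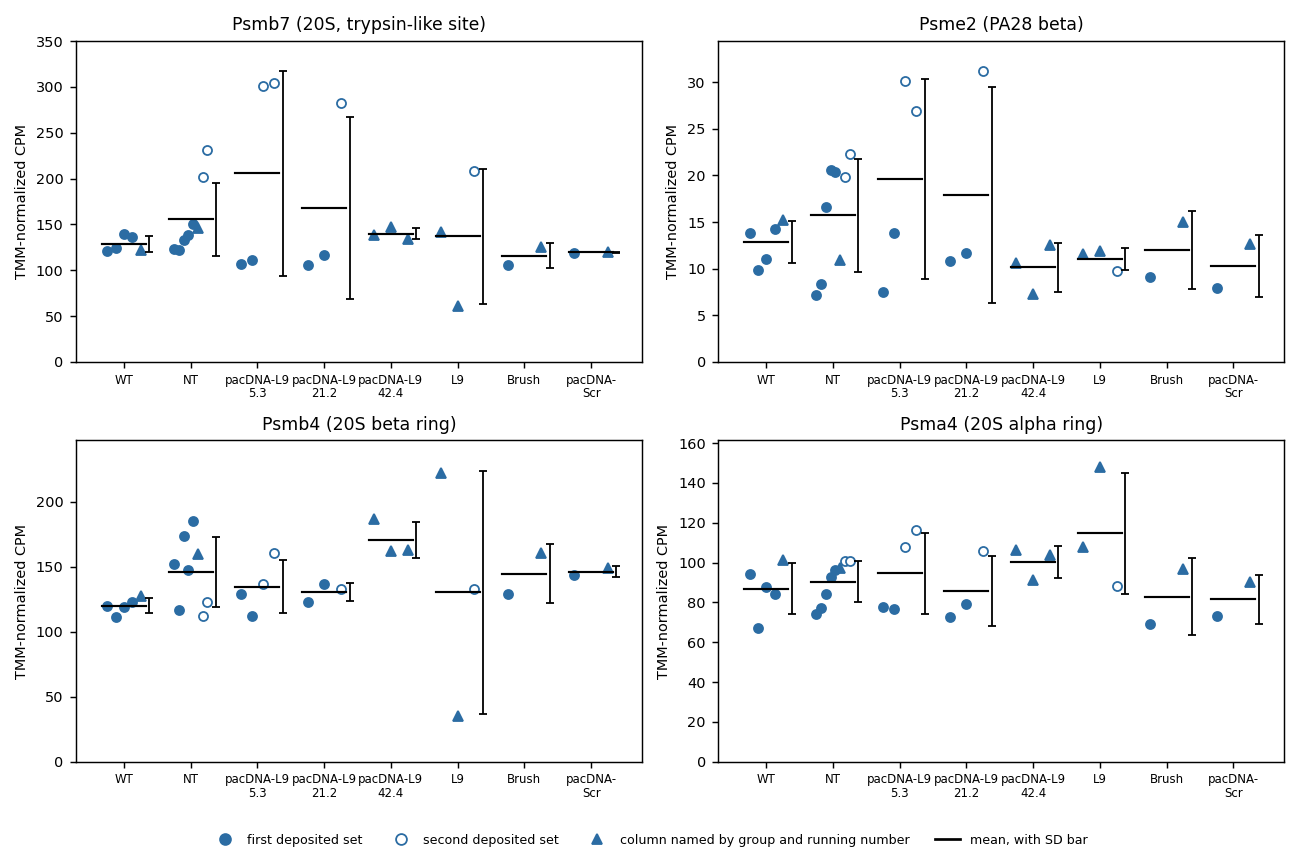
TMM-normalized CPM of Psmb7, Psme2, Psmb4 and Psma4 in each library by group, with open circles for second-set libraries. Second-set libraries reach 202 to 304 CPM for Psmb7 where first-set libraries stay at 61.1 to 151 CPM, and L9 B is lowest for Psmb4 (35.1 CPM) and highest for Psma4 (148 CPM).

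Some members also differed between the deposited sets. In the same model it was 6 of 41 members between the sets, where 24.9% of all genes were called. Psmb7 rose most in the second set (log2 difference 1.08, SE 0.13, adjusted p = 7.25e-08): it was at 107 and 111 CPM in the first-set and 301 and 304 CPM in the second-set libraries of pacDNA-L9 5.3 mg/kg, and at 106 and 116 against 282 CPM at 21.2 mg/kg. The sets did not overlap for Psmb7 in the 4 groups that have both. Psma3 (0.58), Psma5 (0.43), Psme2 (0.86) and Psmc6 (0.32) rose and Psmd3 fell (-0.37), with adjusted p from 0.000609 to 0.0220. Psme2 was at 30.1 and 26.95 CPM in the second-set libraries of the 5.3 mg/kg group and at 7.47 and 13.8 CPM in the first. L9 C, the second-set library that does hold mitochondrial counts, was at 208 CPM for Psmb7 but at 9.75 CPM for Psme2 and 75.1 CPM for Psma3, the level of the first set. Of the Psmb7 exon bases 46.8% lie opposite exons of another gene, among them Nek6, and of the Psme2 exon bases 30.8%, among them Rnf31. Whether counting used strand is not given in the sources used here, so reads of such genes cannot be assigned with certainty. Psmd13, Psme1 and Psmc5 share 39.5% to 41.2% of their exon bases in this way, Psmb9 19.6% (with Tap1), Psmb8 14.6%, and Psmd8 and Psmd11 0%. Close copies of 2 members are in the table, Psme2b at a mean of 8.16 CPM and the pseudogene Psma5-ps at 3.21 CPM, so Psme2 and Psma5 are less certain than the rest.

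After group and set were removed, the members of the core varied together from library to library. The median Pearson correlation of residual log2 CPM over the 30 libraries was 0.69 between constitutive 20S genes (91 pairs), 0.50 between 19S genes (136 pairs) and 0.47 between the immunoproteasome and PA28 genes (10 pairs). Between the 19S and the immunoproteasome and PA28 genes it was 0.26 (85 pairs), and over all members 0.43 (820 pairs). The points share their libraries and depth, and L9 A and L9 B are among them, so these values are a description.

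L9 pairs with 3 CTG units in a row, and the canonical transcripts were searched for that run in the sense direction. It was found in 1 of 41 members (2.44%), against 2445 of 13799 protein-coding genes tested (17.7%). The member was Psme1, where the run lies in the 3′ UTR at GRCm39 chr14:55819740-55819748 on the plus strand. The site is printed here with 10 bases on each side and the 3 units in capitals.
Psme1: gtctcagataCTGCTGCTGagagatgaaat

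Psme1 differed from NT by 0.03, -0.09 and 0.01 on the log2 scale at the rising doses of pacDNA-L9, with adjusted p = 1 at each dose. No value passed the test, and the library levels given above overlapped with NT at the highest dose. With free L9, which was not called either, Psme1 was at 42.0 CPM in L9 A and 39.6 CPM in L9 B. Both lay above every NT library (25.3 to 38.5 CPM), while L9 C, at 29.4 CPM, lay inside the NT range.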

How the data were processed

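Poly(A)-enriched RNA of quadriceps was sequenced as paired-end reads. The deposited table holds the raw counts per Ensembl gene that the authors made. HISAT2 2.0.5 and GRCm39 are named in the submitters' processing notes, and the counting options, including strand, are not given in the sources used here. The study's own analysis used DESeq2. Gene symbols, biotypes and lengths came from a GRCm39 annotation, which matched 56017 of 56748 genes.

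Counts of all 30 libraries were fitted in 1 model with edgeR 4.0.16 (limma 3.58.1, R 4.3.3): TMM normalization, filterByExpr by group, a robust quasi-likelihood fit, and the 8 groups with deposited set as a covariate. Benjamini-Hochberg adjustment ran over the 17518 genes tested, with a threshold of 0.05. DESeq2 1.42.0 was an alternative. An interval is the log2 difference with 2 standard errors on each side, and log2 CPM used a prior count of 2. Correlations, log2 ratios per library and motif matches carry no test. The test was tried on simulated counts first. No 2 libraries had identical counts (0 pairs). One WT library is in a column whose name gives only its group, and it is called unnumbered. It was used as a WT library.

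The genes given in every sample were the immunoproteasome genes, their constitutive counterparts, Psme1 and Psme2, every member called (at most 6 per comparison) and otherwise the 2 members with the smallest p. Psmd4, Psmd7 and Psmd11 in NT against WT, Psmb1, Psmb4 and Psmc2 were added after their values were seen. Pathway genes named were those called, plus Nfe2l1 and Pomp. Not every gene of these lists is reported here. The members, lists and tests were chosen with earlier results of these data known. Alternatives covered normalization, the low-count filter, the set, sex, mitochondrial and running-number covariates, the replicate block and each library left out.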

Additional observations from a re-analysis of the deposited data

Results flagged for a closer look

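For 22 genes named with their values, each group of 4 to 10 libraries was examined for a single library far from the others by Dixon's ratio, 66 gene and group pairs in all, and 4 were found. Chance flags about 1 in 20 groups. Psmb8 was at 13.23 CPM in NT 4, where the NT median was 3.613 CPM and the next library was at 7.536 CPM. Psme1 was at 52.86 CPM in the unnumbered WT library, against a median of 36.46 CPM and a next library at 39.09 CPM. Psme4 was at 304.9 CPM in pacDNA-L9 5.3 mg/kg D, against a median of 261.4 CPM and a next library at 263.2 CPM. Psma5 was at 66.56 CPM in NT 8, against a median of 51.41 CPM and a next library at 53.99 CPM. NT 8 and pacDNA-L9 5.3 mg/kg D are second-set libraries, and Psma5 differed between the sets. NT 4 also had the highest interferon sum of all libraries (141.4 CPM) and a summed level of MHC class I peptide loading genes of 611.6 CPM, below only L9 B at 669.0 CPM. The adipocyte markers were likewise highest in these libraries, with sums of 333.8 CPM in NT 4 and 335.4 CPM in L9 B.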

How the results depend on the processing

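For single genes, 866 alternative values kept their direction and their side of the threshold, 62 turned direction, 21 newly passed the threshold and 3 no longer did, and of the counts of called members 192 stayed within 1.5 times and 13 moved. The number of proteasome genes called in NT against WT was 2 in the model described, 4 without the set covariate, 5 in the first set only (with Psmb1), 5 with DESeq2, the same 5 as in the first set with the running-number covariate added there, and 1 with the replicate block (Psmd8), and 1 to 3 with one library left out. Without WT 3 only Psmd5 was called. Same-numbered WT and NT libraries had deviations with a mean correlation of 0.113 (0.00784 to 0.207), so the numbers were not taken as pairs. The same mice without the block gave 2 (Psmd4 and Psmd5). For pacDNA-L9 42.4 mg/kg against NT, Psmd11 was called (1 gene) with at least 10 counts in every library, with DESeq2, and with the libraries lacking mitochondrial counts as covariate in place of set, the last chosen after seeing the data. For L9 against NT, leaving one library out gave 0 to 4 calls, with 4 without L9 A (Psmb4, Psmb7, Psma1 and Psma5, all lower) and 1 without L9 C (Psma4, 0.59). For pacDNA-L9 5.3 mg/kg against L9 it was 0 to 1, Psmb7 without L9 A (0.67) or Psma4 without L9 C (-0.64). Psmd5 had an adjusted p of 0.0563 with the block, and Psmd8 of 0.0668 in the same mice without it and of 0.0551 without WT 3. The cause was not tested. Shares of all genes called under these alternatives are not given here.

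None of the values that turned direction was called. In NT against WT these were, without the set covariate, Psmb9 (-0.0318), Psmb5 (-0.00052) and Psmb7 (0.28); in the first set only, Psmb8 (0.10), Psmb10 (0.0162) and Psmb7 (0.0836); with sex as covariate, Psmb8 (0.0128); without the libraries lacking mitochondrial counts, Psmb8 (0.0860), Psmb10 (0.00774) and Psmb7 (0.0754); with the running-number covariate, Psmb8 (0.0528), Psmb10 (0.0375) and Psmb7 (0.0844); with the replicate block, Psmb8 (0.0212), Psmb10 (0.0344), Psmb5 (-0.00833) and Psme2 (-0.00312); and in the same mice without the block, Psmb8 (0.16), Psmb10 (0.0424) and Psmb5 (-0.0249). In pacDNA-L9 42.4 mg/kg against NT they were Psme1 with library size alone (-0.0293), no filter (-0.00509), the first set only (-0.0113), sex (-0.0188) and the running-number covariate (-0.29), Psmb10 (0.00926) and Psmb7 (-0.15) without the set covariate, and Psmb5 (-0.10) and Psmb7 (-0.0228) with the running-number covariate. Psmb7 in pacDNA-L9 5.3 mg/kg against L9 was -0.12 with the mitochondrial covariate. With one library left out, NT against WT ran from -0.43 to 0.11 for Psmb8, -0.26 to 0.23 for Psmb9, -0.14 to 0.0287 for Psmb10, -0.0992 to 0.0940 for Psmb5, -0.0304 to 0.0915 for Psmb6, -0.0569 to 0.0233 for Psmb7 and -0.0714 to 0.16 for Psme2, and pacDNA-L9 42.4 mg/kg against NT from -0.12 to 0.16 for Psme1 and -0.34 to 0.11 for Psmb10.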

Other observations

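Genes that tag proteins with ubiquitin and deliver them to the proteasome differed between the deposited sets. In the second set against the first, 8 of 13 ubiquitin and substrate-delivery genes were called, 6 higher and 2 lower, where 24.9% of all genes were called. Over the 13 the log2 differences ran from -0.37 to 4.71, with a median of 0.22, and the gene at 4.71 is not among those named below. Ubb, which encodes ubiquitin, rose by 1.08 on the log2 scale (SE 0.10, adjusted p = 1.31e-09) and Vcp, which encodes the unfoldase p97, by 0.42 (SE 0.11, adjusted p = 0.00304). Uba1, the main ubiquitin-activating enzyme, fell by 0.36 (SE 0.09, adjusted p = 0.00257). Of the 8 genes of MHC class I peptide loading 2 were called: Erap1, a peptidase that trims peptides in the endoplasmic reticulum, rose by 0.76, and Tap1, a subunit of the peptide transporter, fell by 1.00. Treatment groups are spread unevenly over the sets.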
